A study of Mus musculus with 47 samples.

Results

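The cytoplasmic ribosome is built from a small and a large subunit, and each protein of it, apart from the stalk proteins P1 and P2, is present once, so cells make these proteins in matched amounts. Their messages are among the most abundant of growing cells. Most begin with a C followed by a run of pyrimidines, the 5′ terminal oligopyrimidine (TOP) motif, through which mTOR signalling sets how much of each message is translated, so a message level need not follow protein output. In muscle, the making of ribosomes accompanies growth, and progenitors that leave quiescence enlarge their translation machinery.

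The genes described here are those whose mouse symbols begin with Rpl or Rps followed by a number, with Rpsa, Rplp0, Rplp1 and Rplp2. Pseudogenes and the S6 kinases were left out. RefSeq lists 84 protein-coding genes of this kind, 63 of them had a probe on the array, and 59 passed the detection filter, among 8658 genes in all. The filter asked for a detection p under 0.01 in at least 4 of 47 arrays, and the brightest detected probe stood for a gene. The 59 are 31 large subunit genes, 22 small subunit genes, the stalk genes Rplp0 and Rplp1, and the 4 paralogues Rpl3l, Rpl7l1, Rpl22l1 and Rps27l. Rpl17, Rpl39l, Rplp2 and Rps23 had probes that were detected in 0 arrays, and Rpl7 and Rpl10l have no probe here.

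RNA came from muscle progenitors of E17.5 mouse embryos, sorted from the back as positive for Vcam-1 and negative for CD31, CD45 and Sca1, on a mixed 129/Sv, 129/Ola and C57BL/6 background. In Rbpj;MyoD mutants (Pax3cre/+;Rbpjflox/flox;MyoD-/-, 7 arrays, 6 samples) Cre driven by Pax3 deletes Rbpj, the DNA-binding partner of Notch. In DnMaml;MyoD mutants (Pax3cre/+;DnMamlflox/flox;MyoD-/-, 8 arrays, 7 samples) the same Cre switches on a dominant-negative Mastermind, which blocks transcription by the Notch complex. Both lines also lack MyoD, the muscle-determining transcription factor, in every cell, and were set against MyoD-/- embryos (18 arrays, 16 samples). In turn, MyoD-/- and MyoD+/- embryos (4 arrays, 3 samples) were set against wild type (10 arrays, 9 samples). Cre acts in all cells with a Pax3 history, which besides muscle includes neural crest, and the labels do not say if an array stands for 1 embryo or several. P-values therefore measure the spread between these samples.

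Myod1 lay at 9.28 ± 0.20 in the 16 MyoD-/- samples, against 11.15 ± 0.25 in the 9 wild type samples (log2 level, SD), in the direction of the labels. All 47 arrays still detected its probe. The 3 probes of Rbpj were detected in 0 arrays, which leaves its deletion unread. Of the markers of the sort, Vcam1 was detected in 47 arrays, the blood cell gene Ptprc (CD45) in 0 and the endothelial gene Pecam1 (CD31) in 9, and Ly6a (Sca1) had 0 probes. Of other endothelial genes Tek and Egfl7 were detected in 47 arrays, Emcn in 26 and Flt1 in 22. The progenitor factors Pax7 and Myf5 were detected in 2 arrays each and Pax3 in 0. The arrays fall into 6 chip sets: sets 1 and 2 hold DnMaml;MyoD, MyoD-/- and wild type samples, set 3 holds Rbpj;MyoD and MyoD-/- samples, and sets 4, 5 and 6+7 hold all 5 genotypes. Median intensity ran from 64.1 to 250.1 between arrays.

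RefSeq's promoter table (GRCm38.p6) had an entry for 51 of the 59 genes, 62 promoters in all. In 10 of these promoters (16.1%) the annotated first base was a C followed by at least 4 further pyrimidines, as in a TOP message, against 2.29% of the 9116 promoters of all genes tested and 2.51% of all 32851 promoters in the table. A run of 8 or more pyrimidines came within 20 bases of the annotated start in 43.5% of the members' promoters, against 19.9% of those of all genes tested. The 10 C-led starts and those of 4 genes named below are shown from 10 bases before the annotated first base to 20 bases from it, gene strand, with runs of 5 or more pyrimidines in capitals.
Rpl14 (chr9:120571507-120571536, + strand): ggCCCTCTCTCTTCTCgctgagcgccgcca
Rpl28 (chr7:4792955-4792984, + strand): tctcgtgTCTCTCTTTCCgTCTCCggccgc
Rpl35 (chr2:39005112-39005141, - strand): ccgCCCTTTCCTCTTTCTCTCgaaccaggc
Rpl35a (chr16:33056472-33056501, + strand): gcttgCCTTCCTCTTTCCgccatcttggcg
Rpl38 (chr11:114668570-114668599, + strand): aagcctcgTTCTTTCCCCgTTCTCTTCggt
Rps6 (chr4:86857348-86857377, - strand): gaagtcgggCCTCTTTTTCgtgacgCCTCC
Rps10 (chr17:27635225-27635254, - strand): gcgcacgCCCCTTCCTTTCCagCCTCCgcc
Rps15a (chr7:118116128-118116157, - strand): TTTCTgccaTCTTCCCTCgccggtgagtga
Rps21 (chr2:180257369-180257398, + strand): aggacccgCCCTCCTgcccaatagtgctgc
Rps27 (chr3:90213629-90213658, - strand): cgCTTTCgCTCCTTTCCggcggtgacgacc
Rpl22 (chr4:152324426-152324455, + strand): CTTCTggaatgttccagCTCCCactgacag
Rplp0 (chr5:115559457-115559486, + strand): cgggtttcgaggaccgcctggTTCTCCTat
Rps15 (chr10:80292421-80292450, + strand): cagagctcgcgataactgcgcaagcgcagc
Rpl7l1 (chr17:46782637-46782666, - strand): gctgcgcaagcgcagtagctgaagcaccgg

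Motifs of 4 factors were searched on both strands of the 300 bases around each start. None of the 4 contains another. TGGGAA, the core bound by RBPJ, stood in 25.8% of the members' promoters, in 22.6% of those of all genes tested and in 25.6% of all promoters. CAGCTG, the E-box form that MyoD prefers, stood in 4.84% of the members' promoters, those of Rpl35, Rpl3l and Rpl6, in 15.5% of those of all genes tested and in 16.3% of all promoters. CCGGAAGT, the site of the ETS factor GABPA, stood in 14.5% of the members' promoters, in 7.93% of those of all genes tested and in 3.89% of all promoters. AAGATGGC, the site of YY1, stood in 12.9%, 4.46% and 2.75% of the same sets. A match says only that the letters are in the window. Rpl13a, Rpl22, Rpl7l1 and Rps15a had matches to both TGGGAA and AAGATGGC.

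Probe signal differed widely between these genes. The probes of 30 members averaged at least 50% of the brightest probe on the same array, 19 lay between 10% and 50%, and 10 under 10%. Rplp1, a protein of the stalk that recruits elongation factors, averaged 96.1% of the array maximum, Rpl41 91.7% and Rps20 88.1%. Bright probes differed less in raw signal between chips of unlike overall signal. Between MyoD-/- arrays of chip 5 and chip 3, raw signal differed 1.58-fold for the members at 50% or more. It differed 2.78-fold for those between 10% and 50%, and 3.12-fold for those under 10%. Other genes differed 2.02-fold at 50% or more, 3.21-fold between 10% and 50%, and 4.05-fold at 1 to 10%. Whether changes of bright members between genotypes were also read on a narrower scale than those of dim ones was not tested. Levels of different probes are not compared as amounts of transcript.

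After genotype and chip set were removed, the 30 bright members varied with a median SD of 0.08 on the log2 scale, the 19 middle ones with 0.19 and the 10 dim ones with 0.35, against 0.28 over all genes. The narrowest spread was that of Rplp1 at 0.051, Rps20 at 0.051 and Rpl38 at 0.061. Quantile normalisation gives every array the same set of values, so probes at the top ranks can differ little between samples. The highest Rplp1 value was 15.9978 in wild type, MyoD-/-, DnMaml;MyoD and Rbpj;MyoD samples alike. How far this step narrows the spread and the changes of bright members was not tested. The widest was that of Rpl3l at 0.48, Rpl6 at 0.43 and Rpl22l1 at 0.39. Rpl14, Rpl6, Rpsa and Rpl3l were near background, detected in 17, 9, 6 and 4 of 47 arrays, while the other 55 were detected in all. Rpl14, Rpl6 and Rpsa encode core ribosomal proteins, and Rpl3l a form made in striated muscle.

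The typical pair of members moved together only loosely, but pairs differed widely. Over 41 samples, with genotype and chip set removed, the median correlation over 1711 pairs of members was 0.10, with a mean of 0.11 against 0.0015 over all pairs of genes. The lowest decile of the members' pairs was -0.30 and the highest 0.55. The median was 0.05 within the 30 bright members, 0.27 within the 19 middle ones and -0.04 within the 10 dim ones. All members of a sample were read from the same arrays under the same scaling, so these are descriptions. Rpl37a, Rps27 and Rpl35a followed the median of the other members most closely (r of 0.85, 0.84 and 0.83 over 41 samples). Several members ran against it, Rps4x most at -0.46, then Rpl7l1 at -0.32, Rps13 at -0.31 and Rps6 at -0.30.

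Deleting Rbpj on the MyoD-null background was set against MyoD-/- to ask what the loss of the Notch DNA-binding protein adds. In Rbpj;MyoD samples 5 ribosomal protein transcripts fell and 0 rose: Rpl22, a large subunit protein, Rplp0, the base of the stalk, Rps15, a small subunit protein, Rpl21 and Rpl14, both of the large subunit, the last on a probe near background. That is 8.47% of the 59, against 20.1% of all genes called in either direction, 10.2% called higher and 9.92% called lower, so the members' share called lower was near the background and none was called higher. The median change of the members was -0.06, with 46 of 59 negative, against a median of -0.02 over all genes. The 30 bright members had a median change of -0.02 and 0 calls, the 19 middle ones -0.13 with 18 negative, and the 10 dim ones -0.18 with 8 negative.

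Rpl22 ran from 13.37 through a median of 13.58 to 13.84 in Rbpj;MyoD samples (log2 level, n = 6) and from 13.54 through 13.95 to 14.05 in MyoD-/- samples (n = 16). The groups overlap, and 15 of the 16 MyoD-/- values lie above the Rbpj;MyoD median. The fitted change was -0.32 ± 0.08 (SE, 95% interval -0.47 to -0.16, limma adjusted p = 0.00262). It was negative in 4 of 4 chip sets, from -0.47 to -0.20, and called under all 21 alternatives of processing and whichever single sample was left out. Under common-median scaling it was -0.50.

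Rplp0 ran from 12.16 through 12.52 to 12.89 in Rbpj;MyoD samples and from 12.38 through 12.66 to 13.10 in MyoD-/- samples, with overlap. Its fitted change was -0.32 ± 0.08 (SE, limma adjusted p = 0.00268), with -0.49 to -0.27 in the 4 chip sets. A second, dim probe of Rplp0, detected in 24 arrays, gave -0.30 ± 0.23, and the call is lost when the probes are averaged, when no chip term is fitted and when the replicate number takes the place of the chip set (-0.17). Rplp1, its stalk partner and the brightest member, averaged 15.95 ± 0.05 in the 6 Rbpj;MyoD samples, against 15.92 ± 0.04 in the 16 MyoD-/- samples (SD), a change of 0.04 ± 0.05 (SE, limma adjusted p = 0.65).

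Rps15 ran from 14.26 through 14.63 to 15.10 in Rbpj;MyoD samples and from 14.66 through 15.08 to 15.35 in MyoD-/- samples. In both genotypes the samples of chip sets 4, 5 and 6+7 are the low ones, and within chip sets the change was -0.41 to -0.15. The fitted change was -0.24 ± 0.07 (SE, limma adjusted p = 0.00924), lost without Rbpj;MyoD replicate 6-7 (adjusted p = 0.0508) and without chip set 4 or 6+7, under cyclic loess and with no chip term. It was -0.42 under common-median scaling and -0.66 with the replicate block.

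Rpl21 was read by a pair of probes of like brightness, and both were lower, by -0.32 ± 0.11 and -0.57 ± 0.17 (SE, limma adjusted p over all probes = 0.0451 and 0.0144). On the first it ran from 9.02 through 9.38 to 9.54 in Rbpj;MyoD samples and from 9.03 through 9.82 to 9.98 in MyoD-/- samples. Its call (limma adjusted p = 0.0414) is lost in 11 of 41 leave-one-out fits, those without MyoD-/- replicate 8, 9, 11, 13, 14, 15-17 or 16-18 or without Rbpj;MyoD replicate 3, 4, 5 or 6-7, where the adjusted p reached 0.149 and the change -0.27. It is also lost under common-median scaling with or without background correction, under cyclic loess, and without chip set 4, 5 or 6+7 (adjusted p up to 0.252).

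Rpl14 was called lower (-0.54 ± 0.18, SE, limma adjusted p = 0.0256) on a probe near background, detected in 3 of 7 Rbpj;MyoD arrays and 9 of 18 MyoD-/- arrays. Its levels were 5.51 to 7.30 in Rbpj;MyoD samples and 5.64 to 7.85 in MyoD-/- samples, with wide overlap, mostly below detection, and no fold is drawn from them. The call is lost without MyoD-/- replicate 7 or Rbpj;MyoD replicate 2, 4 or 5 (adjusted p up to 0.101), with no chip term (-0.24), with the replicate block (-0.003), with chip set as a random block, in the chip sets with all 5 genotypes, and without chip set 3, 4 or 5, so that 13 of 20 alternatives kept it.

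**Figure D1:**
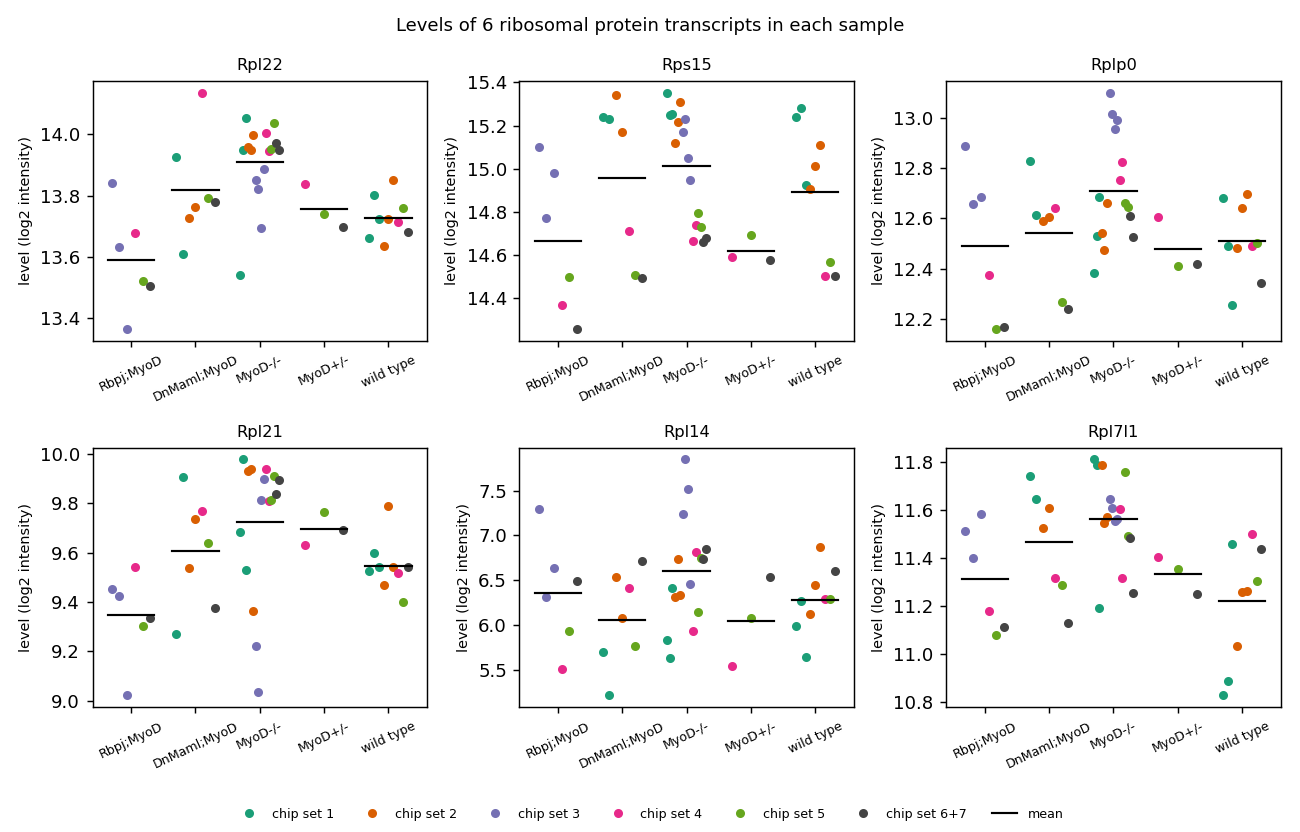
Log2 level (y axis) of 6 ribosomal protein transcripts in each of the 41 samples, by genotype along the x axis. A point is 1 sample, its colour the chip set, and the bar the mean, not adjusted for chip set. Rpl22 ran from 13.37 to 13.84 in Rbpj;MyoD samples and from 13.54 to 14.05 in MyoD-/- samples, and Rps15 is lower in chip sets 4, 5 and 6+7 in every genotype that spans them and others.

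Markers of other cells moved in the same comparison, where 10.2% of all genes were called higher and 9.92% lower. Of 4 erythroid genes measured 3 were lower in Rbpj;MyoD samples and 0 higher: Hba-a1 (haemoglobin alpha) changed by -1.66 ± 0.24, Alas2 by -2.09 ± 0.31 and Hbb-bt by -1.81 ± 0.32 (SE, limma adjusted p = 2.42e-06, 4.55e-06 and 5.68e-05), and Hbb-y was detected in 0 arrays. The summed level of a list is here the log2 of the summed intensities of its measured genes, in which the brightest probes weigh most. For the 4 erythroid genes it ran from 12.26 to 14.11 in Rbpj;MyoD samples and from 13.26 to 15.68 in MyoD-/- samples. Of 8 fibroblast markers 6 were higher, among them Pdgfra by 1.94 ± 0.36 and Dcn (decorin) by 1.17 ± 0.19, with a summed level of 15.79 to 16.33 in Rbpj;MyoD and 14.99 to 16.09 in MyoD-/- samples. Of 9 leukocyte markers 1 was measured and 0 were called, with Ptprc at 0 arrays. Of 2 Schwann and neural crest genes measured Ngfr was 1.503 ± 0.20 higher (limma adjusted p = 6.36e-07), with a summed level of 9.96 to 11.13 in Rbpj;MyoD and 8.25 to 9.91 in MyoD-/- samples, and 0 of 5 endothelial genes were called. Of 10 muscle progenitor markers 8 were lower and 1 higher, among them Itga7 (-1.50 ± 0.13) and Vcam1 itself (-0.58 ± 0.12). The 8 lower ones count Myod1 (-0.37 ± 0.12), which is mutated in both genotypes. In these bulk samples fewer cells of a type and less RNA per cell cannot be told apart, and the part of these shifts in the lower ribosomal protein transcripts was not tested.

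Expression of DnMaml on the same background was set against MyoD-/- as another way of blocking Notch. In DnMaml;MyoD samples 0 of 59 ribosomal protein transcripts were called by limma, against 8.81% of all genes, 5.39% called higher and 3.42% called lower. At an unadjusted limma p under 0.05 lay 0 of the 59, beside 1956 of all 8658 genes. The median change was 0.009, with 32 positive and 27 negative. Of the genes named above, Rpl22 changed by -0.10 ± 0.07 (SE, 95% interval -0.25 to 0.04, limma adjusted p = 0.405), Rps15 by -0.05 ± 0.06 (-0.18 to 0.08) and Rplp0 by -0.06 ± 0.07 (-0.21 to 0.08). Rpl22 ran from 13.61 through 13.78 to 14.14 in DnMaml;MyoD samples (n = 7), inside the range of MyoD-/- but for its highest value. Among the 269 other genes with levels at or above the members' lower quartile, 5.95% were called. Only 39 genes besides the members reach 50% of the array maximum, so most of these 269 lie under it, while 30 of the 59 members reach it. Markers of other cells moved here too. Of 2 Schwann and neural crest genes 2 were higher, such as Mbp (2.45 ± 0.27, SE, limma adjusted p = 7.29e-08). Of 5 endothelial genes 1 was higher (Egfl7, 0.47 ± 0.09, limma adjusted p = 5.81e-04), and of 8 fibroblast genes 1 (Dcn, 0.56 ± 0.18). None of 4 erythroid genes was called. Of 10 muscle progenitor markers 5 were lower, such as Itga7 (-0.93 ± 0.12), and 1 higher (Des, 0.58 ± 0.10). The part of these shifts in the ribosomal protein readings was not tested.

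Rbpj;MyoD was also set directly against DnMaml;MyoD, to test the difference between the mutants. Of the 59 members 0 were called by limma, against 3.94% of all genes, 1.59% called higher and 2.34% called lower. At an unadjusted limma p under 0.05 lay 5 of the 59 members, beside 1312 of all 8658 genes. The median of the members was -0.07, with 47 of 59 negative, against -0.0005 over all genes, with 4338 of 8658 negative. The 29 members under 50% of the array maximum had a median of -0.17. Rplp0 differed by -0.25 ± 0.09 (SE, 95% interval -0.44 to -0.06, limma adjusted p = 0.149), Rpl22 by -0.21 ± 0.09 (-0.40 to -0.02, adjusted p = 0.251) and Rps15 by -0.19 ± 0.08 (-0.36 to -0.02, adjusted p = 0.249). This comparison and that of Rbpj;MyoD with MyoD-/- share the Rbpj;MyoD samples, so their negative medians are not separate evidence.

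**Figure D2:**
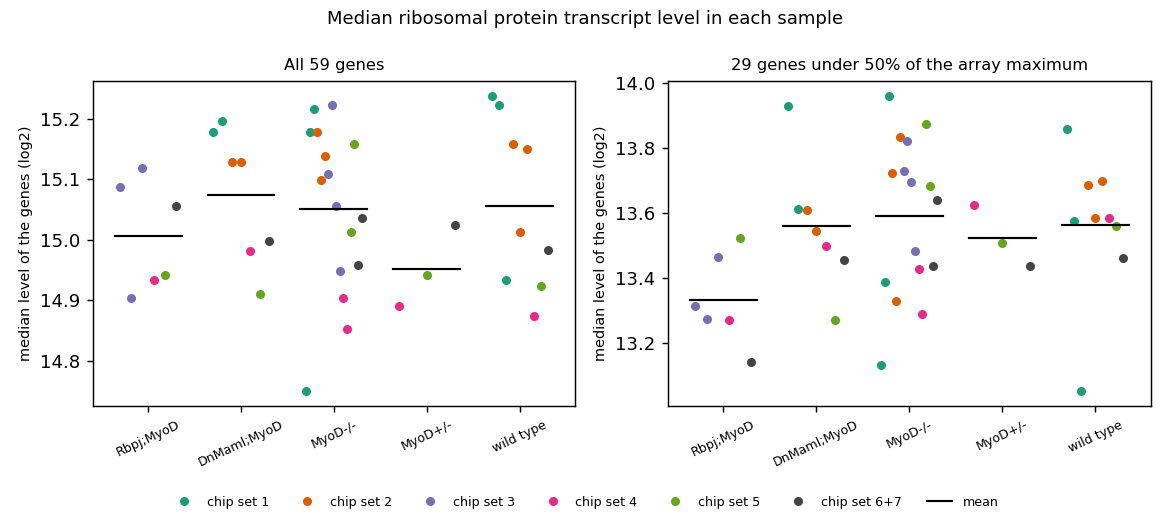
Median log2 level (y axis) of all 59 ribosomal protein transcripts and of the 29 under 50% of the array maximum, in each sample (points, coloured by chip set) by genotype (x axis), with the mean as a bar, not adjusted for chip set. Over the 29 genes the 6 Rbpj;MyoD samples ran from 13.14 to 13.52 and the 16 MyoD-/- samples from 13.13 to 13.96.

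Per sample, the median over all 59 members was 15.01 ± 0.09 in Rbpj;MyoD (n = 6), 15.07 ± 0.11 in DnMaml;MyoD (n = 7), 15.05 ± 0.14 in MyoD-/- (n = 16), 14.95 ± 0.07 in MyoD+/- (n = 3) and 15.06 ± 0.14 in wild type (n = 9), with the SD over samples. Within chip sets the median change of the 59 members in Rbpj;MyoD against MyoD-/- was negative in 4 of 4 sets, -0.11 to -0.05. Over the 29 members under 50% the means were 13.33 ± 0.14 in Rbpj;MyoD, 13.56 ± 0.20 in DnMaml;MyoD, 13.59 ± 0.24 in MyoD-/-, 13.52 ± 0.10 in MyoD+/- and 13.56 ± 0.22 in wild type. Within chip sets the median change of these 29 from MyoD-/- was negative in 4 of 4 sets for Rbpj;MyoD, from -0.26 to -0.09, and of either sign for DnMaml;MyoD, from -0.17 to 0.15.

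Loss of MyoD itself was read by setting MyoD-/- against wild type. Here Rpl7l1, Rpl22 and Rps15 rose and Rpsa was called lower, 4 of 59 or 6.78%, against 22.1% of all genes, 10.7% called higher and 11.4% called lower. Among the 269 other genes at or above the members' lower quartile, most of them under 50% of the array maximum, 21.9% were called. The median change of the members was 0.01, with 35 positive and 24 negative, against -0.02 over all genes. By subunit the medians were 0.01 for both the 31 large and the 22 small subunit genes. Markers of other cells moved here too. Of 5 endothelial genes 1 was lower (Egfl7, -0.63 ± 0.09), of 8 fibroblast genes 1 was higher (Osr2, 1.08 ± 0.11), of 2 Schwann and neural crest genes 1 was lower (Ngfr, -0.51 ± 0.17), and 0 of 4 erythroid genes were called. Of 10 muscle progenitor markers 3 were higher, such as Vcam1 (0.70 ± 0.11). The 4 lower ones were Myod1 (-1.93 ± 0.10), the gene mutated in this comparison, Heyl (-1.86 ± 0.17), Megf10 (-0.92 ± 0.08) and Itga7 (-0.79 ± 0.11). The part of these marker shifts in the ribosomal protein calls was not tested.

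Rpl7l1, a paralogue of Rpl7 whose relative in yeast acts in assembly of the large subunit, ran from 11.19 through 11.57 to 11.81 in MyoD-/- samples and from 10.83 through 11.26 to 11.50 in wild type samples. The groups overlap, and the fitted change was 0.32 ± 0.09 (SE, limma adjusted p = 0.0119). It was 0.54 and 0.45 in chip sets 1 and 2, 0.32 in set 5, and -0.04 and -0.07 in sets 4 and 6+7, and the call was lost without set 1 or 2. In the 3 sets with all 5 genotypes the change was 0.07, and with array weights 0.18. Its dimmer second probe gave 0.14 ± 0.13.

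Rpl22 averaged 13.91 ± 0.13 in the 16 MyoD-/- samples, against 13.73 ± 0.07 in the 9 wild type samples (SD), a change of 0.19 ± 0.07 (SE, limma adjusted p = 0.0363) that was positive in 5 of 5 chip sets, from 0.12 to 0.28. Rps15 had 15.01 ± 0.26 in MyoD-/- samples and 14.89 ± 0.31 in wild type. The fitted change was 0.17 ± 0.06 (SE, limma adjusted p = 0.0336), positive in 5 of 5 chip sets, from 0.14 to 0.21. The call of Rpl22 was kept in 12 of 21 alternatives and that of Rps15 in 10 of 21. Both are lost under common-median scaling with or without background correction, under cyclic loess (Rps15 at 0.07), with no chip term, and without chip set 2, 4, 5 or 6+7. That of Rpl22 is also lost with the replicate block, and that of Rps15 with chip set as a random block, in the chip sets with all 5 genotypes and without chip set 1. The call of Rpl22 is lost without any of 13 single samples (wild type replicate 1, 4, 5, 7, 8 or 9-10, MyoD-/- replicate 2 to 6, 14 or 15-17), with an adjusted p up to 0.0849, and that of Rps15 without wild type replicate 3, 4, 5 or 7 or MyoD-/- replicate 6 (up to 0.0738). Rpl22 and Rps15 thus were higher without MyoD and lower again in Rbpj;MyoD. The same MyoD-/- samples stand in both comparisons, so one reading is not a check of the other.

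Rpsa, a small subunit protein that is also known as a laminin receptor, had -0.41 ± 0.15 (SE, limma adjusted p = 0.0439). Its probe was detected in 2 of 18 MyoD-/- arrays and 1 of 10 wild type arrays, so both levels, 5.09 to 6.71 and 6.05 to 7.10, lie mostly below detection and no fold is drawn from them. The call is lost in 12 of 41 leave-one-out fits (adjusted p up to 0.103), namely without wild type replicate 1, 2, 4, 5 or 6, MyoD-/- replicate 1, 2, 4, 5, 11 or 15-17, or Rbpj;MyoD replicate 6-7. In the chip sets with all 5 genotypes the change was 8.53e-04.

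The remaining paralogues were set beside their parents. Rpl22l1, a paralogue that Rpl22 is known to repress in mouse cells, had levels of 8.80 to 10.22 in MyoD-/- and 8.24 to 10.30 in wild type samples, and its change was 0.21 ± 0.17 (SE, limma adjusted p = 0.406). In Rbpj;MyoD against MyoD-/-, where Rpl22 fell, it was -0.04 ± 0.19 (adjusted p = 0.923). Rps27l, a p53-induced copy of Rps27, had 14.70 ± 0.16 in Rbpj;MyoD, 14.88 ± 0.14 in DnMaml;MyoD, 14.79 ± 0.11 in MyoD-/-, 14.79 ± 0.08 in MyoD+/- and 14.75 ± 0.16 in wild type (SD), and Rps27 had 15.08 ± 0.11 in Rbpj;MyoD, 15.04 ± 0.16 in DnMaml;MyoD, 15.04 ± 0.22 in MyoD-/-, 14.95 ± 0.06 in MyoD+/- and 15.07 ± 0.19 in wild type. Neither gene was called in any of the 5 comparisons. Rpl3l, the striated muscle form of Rpl3, was detected in 0 of 7 Rbpj;MyoD arrays, 0 of 8 DnMaml;MyoD arrays, 1 of 18 MyoD-/- arrays, 1 of 4 MyoD+/- arrays and 2 of 10 wild type arrays, while Rpl3 itself lay between 15.20 and 15.63 in all 41 samples. Rpl10 and Rpl39, parents of paralogues with no reading here, were called in 0 comparisons, with changes of -0.10 to 0.10.

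MyoD+/- was set against wild type to read the effect of 1 lost copy. Of the 59 members 0 were called by limma, against 0% of all genes. At an unadjusted limma p under 0.05 lay 1 member, Rpl23 (-0.34 ± 0.15), beside 314 of all 8658 genes. With 3 MyoD+/- samples the median SE of a member was 0.11, against 0.07 for MyoD-/- against wild type, so a change of the size seen there may not have been detectable. The median change was 0.002.

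**Figure D3:**
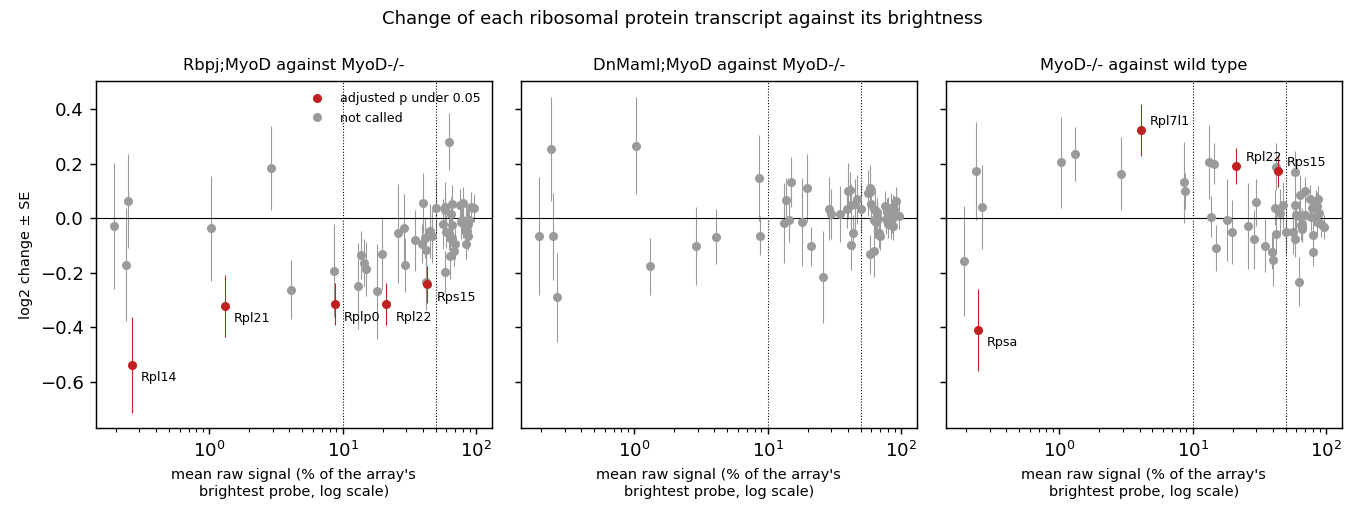
Log2 change with its SE (y axis) of each of the 59 transcripts against the mean raw signal of its probe as a percent of the array's brightest probe (x axis, log scale), in 3 comparisons. Red points were called, grey ones were not, and dotted lines mark 10% and 50%. Of the 30 genes right of 50% none was called in these comparisons, and the 5 falls in Rbpj;MyoD lie left of it, from Rpl14 at 0.26% to Rps15 at 43.4%.

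Where 1 gene had several probes, they did not always tell the same story. Of 13 members with several detected probes, Rpl23 had 3 with changes of -0.23 ± 0.09, -0.03 ± 0.06 and 0.28 ± 0.10 (SE, limma adjusted p over all probes = 0.0664, 0.819 and 0.0527) in MyoD-/- against wild type, the brightest the negative one. Dim second probes of a pair of bright genes were lower in Rbpj;MyoD than in MyoD-/-, that of Rpl37 by -0.57 ± 0.20 (limma adjusted p over all probes = 0.0388), detected in 14 arrays, and that of Rps19 by -0.31 ± 0.11 (0.0465), detected in all. The bright probes of the same genes gave -0.02 ± 0.06 and -0.03 ± 0.06. These 3 genes were chosen after their values were seen, and no gene had probes called in opposite directions.

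Genes with which the ribosomal proteins work were read from lists. Of the ribosome assembly factors, nucleolar proteins that process ribosomal RNA and load these proteins, in Rbpj;MyoD against MyoD-/- 8 of 42 fell and 0 rose, with a list median of -0.18, where 9.92% of all genes were called lower. In MyoD-/- against wild type 11 of 42 rose and 1 fell, with a median of 0.19, where 10.7% of all genes were called higher and 11.4% lower. Pes1 (-0.67 ± 0.16), Nop2 (-0.57 ± 0.15) and Nip7 (-0.40 ± 0.12), which act on the large subunit, fell in Rbpj;MyoD (SE, limma adjusted p = 0.00237, 0.0058 and 0.0116). In MyoD-/- Grwd1, a chaperone of Rpl3, was 0.86 ± 0.15 higher than in wild type (adjusted p = 5.31e-05), and Rrs1, which brings in the 5S particle, 0.94 ± 0.18 higher (2.04e-04), while Ltv1, a small subunit export factor, was lower by -0.50 ± 0.13 (0.00439). In DnMaml;MyoD against MyoD-/- 1 of 42 was called, the rRNA methylase gene Fbl at -0.20 ± 0.06 (limma adjusted p = 0.0484). There 3.42% of all genes were called lower, and the list median was -0.14. Between Rbpj;MyoD and DnMaml;MyoD 0 of 42 were called, with a list median of -0.08. The lower assembly factors are therefore not shown to be particular to Rbpj;MyoD. The lower and higher counts in the first 2 comparisons again share the MyoD-/- samples.

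Of 13 RNA polymerase I genes 2 rose in MyoD-/- against wild type, Cd3eap (0.69 ± 0.17) and Ubtf (0.29 ± 0.08), with a list median of -0.06, and 0 were called in the double mutants. Over all genes 10.7% were called higher in MyoD-/- against wild type, and 9.92% lower in Rbpj;MyoD against MyoD-/-. Of 19 genes for translation factors and other proteins with TOP messages 1 fell in Rbpj;MyoD against MyoD-/-, Tpt1 (-0.46 ± 0.16, limma adjusted p = 0.0334), with a median of -0.06 beside -0.06 for the ribosomal proteins, and 1 rose in MyoD-/- against wild type, Vim (0.28 ± 0.10). Of 21 other initiation factors 0 were called in any of the 5 comparisons. Fau and its like, ribosomal genes outside the symbol rule, had 2 measured and 0 called.

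Mitochondrial ribosomal proteins, which serve the separate ribosome of that organelle, were called at 7 lower and 0 higher of 70 in Rbpj;MyoD against MyoD-/-, near the 9.92% of all genes called lower, among them Mrps2 (-0.42 ± 0.12), Mrpl15 (-0.42 ± 0.12) and Mrps18b (-0.49 ± 0.15). In MyoD-/- against wild type 10 were lower, led by Mrpl38 (-0.40 ± 0.07), Mrpl42 (-0.42 ± 0.10) and Mrpl2 (-0.35 ± 0.09), and 4 were higher, beside 11.4% of all genes called lower and 10.7% called higher. The list median was -0.10, beside 0.01 for the cytoplasmic proteins.

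Of 13 measured growth regulators 1 rose and 3 fell in Rbpj;MyoD against MyoD-/-, 1 rose in DnMaml;MyoD, and 3 rose and 2 fell in MyoD-/- against wild type. Over all genes 10.2% were called higher and 9.92% lower in Rbpj;MyoD against MyoD-/-. These shares were 5.39% and 3.42% in DnMaml;MyoD, and 10.7% and 11.4% in MyoD-/- against wild type. Mycl, a MYC family gene, was -1.33 ± 0.14 in Rbpj;MyoD against MyoD-/-, 0.46 ± 0.13 in DnMaml;MyoD against MyoD-/-, and -1.92 ± 0.12 in MyoD-/- against wild type (SE, limma adjusted p = 4.25e-09, 0.0168 and 2.18e-14). In MyoD-/- against wild type Myc was 0.56 ± 0.14 its partner Max 0.54 ± 0.12 and the MYC antagonist Mxd4 0.48 ± 0.11 higher (limma adjusted p = 0.00379, 0.001008 and 0.001004). In Rbpj;MyoD against MyoD-/- Max fell by 0.56 ± 0.14 and Mxd4 by 0.42 ± 0.12 (0.00252 and 0.0115). The members' medians in these 3 comparisons were -0.06, 0.009 and 0.01. Of 15 genes of the p53 response, which stalled ribosome assembly can set off, 5 rose in MyoD-/- against wild type, such as Sesn2 (0.98 ± 0.23), Trp53inp1 (0.46 ± 0.12) and Phlda3 (0.44 ± 0.13), and in Rbpj;MyoD 1 rose, Ccng1 (0.63 ± 0.14), and 3 fell, such as Gadd45a (-0.73 ± 0.13).

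Muscle differentiation genes give the scale of the genotype effects. Of 16 measured, 14 rose and 1 fell in DnMaml;MyoD against MyoD-/-, with a list median of 1.28, where 0 ribosomal protein transcripts were called. In all, 2 rose and 5 fell in Rbpj;MyoD against MyoD-/- (median -0.28), and 1 rose and 10 fell in MyoD-/- against wild type (median -0.68). Over all genes 5.39% were called higher and 3.42% lower in DnMaml;MyoD against MyoD-/-. These shares were 10.2% and 9.92% in Rbpj;MyoD against MyoD-/-, and 10.7% and 11.4% in MyoD-/- against wild type.

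**Figure D4:**
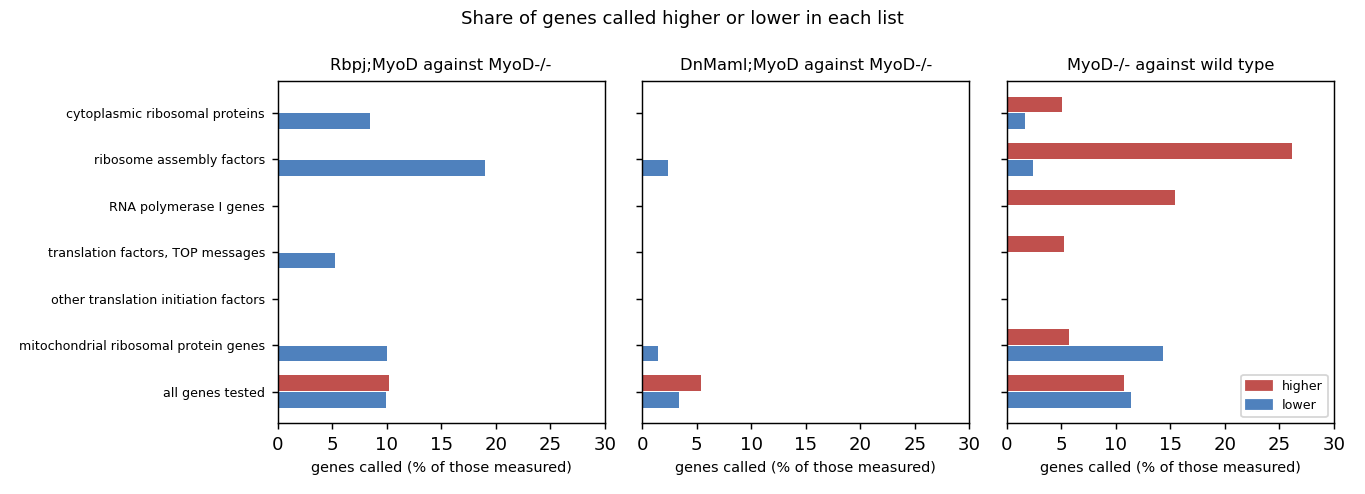
Share of measured genes called higher (red) or lower (blue) in 3 comparisons (x axis, percent), for the ribosomal proteins, 5 related lists and all genes tested (y axis). In Rbpj;MyoD the 59 cytoplasmic ribosomal proteins had 5 calls, all lower, and the 42 assembly factors 8, all lower, while 9.92% of all genes were called lower.

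The 10 members with a C-led start had a median change of -0.09 in Rbpj;MyoD against MyoD-/-, with 1 called (Rpl14, on a probe near background). The 41 other members with a promoter entry had -0.05, with 3 called, where 20.1% of all genes were called. In MyoD-/- against wild type the medians were 0.01 and 0.02, with 0 and 4 called, where 22.1% of all genes were called. The annotated first base may not be the start in use, so the 41 are not shown to lack a TOP motif.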

How the data were processed

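Total RNA was labelled and hybridised to Illumina bead arrays. The authors deposited raw bead intensity and a detection p-value per probe for 47 arrays, and a table of processed intensity values, made with GenomeStudio 2010.1 per the submitters' processing notes; its array medians ran from 37.0 to 38.1. Gene symbols came from GEO's platform annotation, updated through RefSeq gene numbers (23962 of 25697 probes matched).

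Intensities were background-corrected from the detection p-values (limma 3.58.1 in R 4.3.3, normexp, offset 16), quantile-normalised and taken to log2. Arrays of chips 6 and 7 at the same position were averaged, since 11 of 12 correlated best with their partner (median r = 0.491), leaving 41 samples; in 2 of the 6 pairs a Y-linked transcript was detected in 1 array only, so these arrays may be separate samples, and every array as its own sample is an alternative. All 5 genotypes were fitted together with chip set as a fixed effect (31 residual degrees of freedom); calls are two-sided limma tests with an adjusted p under 0.05 (Benjamini-Hochberg, 8658 genes). The fit was tested on simulated data. Precision is limited by how many arrays a genotype has.

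The members and lists were chosen with earlier results of these data known. Named genes are Myod1 and Rbpj, the called members, the paralogues with their parents, Rpsa and the stalk genes, the 3 members of widest and 3 of narrowest spread, and up to 3 called genes per list. The classes of probe brightness were chosen after seeing the data. Alternatives are in the closing section.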

Additional observations from a re-analysis of the deposited data

Results flagged for a closer look

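In 4 of 57 sets of levels tested, 1 sample stood far from the others of its group by the gap to its neighbour over the group's range. By chance about 1 in 20 would. The sets are from wild type, DnMaml;MyoD and Rbpj;MyoD. MyoD-/- (n = 16) and MyoD+/- (n = 3) lay outside the sample numbers of the test and were not checked. Rpl39 was 15.07 in Rbpj;MyoD replicate 4 (next sample 15.26) and 14.97 in wild type replicate 3 (next 15.19). Rplp1 was 15.85 in Rbpj;MyoD replicate 4 (next 15.94). Rps27l was 15.0003 in Rbpj;MyoD replicate 3 (next 14.71).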

How the results depend on the processing

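Over the named genes, alternatives and left-out samples, 102 fits lost a call, 12 gained one and 1 reversed a called change. In 221 fits a gene called in neither changed sign, and 4546 kept call and sign. For Rbpj;MyoD against MyoD-/- (5 called) the count was 19 with array weights (of 3668 over all genes), 9 in the chip sets with all 5 genotypes or with every array as its own sample, 3 with no chip term, 8, 2, 3 and 3 without chip set 1, 4, 5 and 6+7, and 3 to 8 without single samples (8 without Rbpj;MyoD replicate 1, 3 without replicate 4, 5 or 6-7). For MyoD-/- against wild type (4 called) it was 7 with array weights, 1 under common-median scaling, with or without background correction, and 1 with no chip term, 0, 2, 1 and 2 without chip set 2, 4, 5 and 6+7, and 1 to 5 without single samples (1 without wild type replicate 4, 2 without wild type replicate 5 or MyoD-/- replicate 4, 5 or 15-17). For DnMaml;MyoD against MyoD-/- (0 called) it was 1, Rplp0 at -0.29, in the chip sets with all 5 genotypes. For Rbpj;MyoD against DnMaml;MyoD (0 called) it was 5 with array weights, 1 with trend and robust fitting, 2 with every array as its own sample, and 0 to 1 without single samples (1 without MyoD-/- or Rbpj;MyoD replicate 1). Replicate numbers did not pair the samples (43 same-number pairs, median r = -0.04, from -0.27 to 0.41); with the replicate number as a block in place of the chip set the counts were 8 for Rbpj;MyoD and 1 for DnMaml;MyoD against MyoD-/-, 1 for Rbpj;MyoD against DnMaml;MyoD, and 1 for MyoD+/- against wild type. Over all genes the count in Rbpj;MyoD against MyoD-/- was 1742 in the main fit and 3668 with array weights. For the other settings the count over all genes is not given here. The members' counts alone therefore do not separate a change of the members from a change in how many genes were called in all. The cause of these differences was not tested.

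The members' median in Rbpj;MyoD against MyoD-/- moved to -0.20 under common-median scaling, where the median of all genes was -0.09, and to -0.17 when background correction was left out as well; with cyclic loess it was -0.01. Against DnMaml;MyoD the first 2 settings gave -0.23 and -0.20. In MyoD-/- against wild type the common median gave 0.06 for the members and 0.08 for all genes, and loess -0.05. With the authors' processed values, whose centring is not stated, 5 members were called in each of the first 2 comparisons. Rpsa reversed, to 8.53e-04, in the chip sets with all 5 genotypes. The setting without background correction and the classes of brightness were chosen after seeing the data. Signal near the top of the scale may limit what bright probes can show, which was not tested.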
